A study of Mus musculus with 4 samples.

Results

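Intercalated-cell-rich spots are the kidney tissue spots that gave most RNA of 3 genes of intercalated cells, the acid- and base-secreting cells of the renal collecting duct. In each of 4 Visium sections, tissue spots with at least 2000 unique molecular identifiers (UMIs, single captured RNA molecules) were ranked by the share of Atp6v1g3, Slc4a1 and Slc26a4 in their UMIs, and the top 5% were taken. Members were thus chosen by the measured share of these 3 genes. They numbered 128 of 2568 spots in normal 1, 127 of 2532 in normal 2, 117 of 2343 in ischemic 1 and 125 of 2508 in ischemic 2, in all 497 of 9951. The other 9454 spots that met the UMI minimum served for comparison, and 10312 spots lay under tissue. All sections were of left kidneys of wild-type C57BL/6J male mice of 7 to 8 weeks, cut at 10 µm. The normal kidneys were labelled as normal controls, and the ischemic kidneys were taken 24 hours after both renal pedicles had been clamped for 30 minutes. The study cut technical replicate sections from each of its mice and the sources used here do not say which section came from which mouse, so the section was the unit, and p-values measure the spread between sections, which may be technical. All 4 sections lay on the same slide, normal on areas D1 and C1 and ischemic on B1 and A1, so that capture area and condition cannot be told apart.

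A Visium spot is a small region that holds several cells, so a spot rich in intercalated cell RNA also carries RNA of neighbouring cells. Intercalated cells sit among principal cells in the connecting tubule and collecting duct. Type A cells secrete acid through an apical proton pump (V-ATPase) and return bicarbonate to the blood through Slc4a1 (anion exchanger 1), whereas type B cells secrete bicarbonate through Slc26a4 (pendrin), and Atp6v1g3 is a kidney-enriched subunit of the pump itself. Slc4a1 is also the band 3 protein of red blood cells. The forkhead transcription factor Foxi1 is known to be required for intercalated cell identity and for expression of their pump subunits and anion exchangers. Sums over spots cannot tell fewer cells of a type from less RNA per cell.

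Atp6v1g3 lies at chr1:138273738-138289462 on the plus strand, Slc4a1 at chr11:102348824-102366203 and Slc26a4 at chr12:31519827-31559969 on the minus strand, and Foxi1 at chr11:34204338-34208089 on the minus strand (GENCODE annotation of GRCm38, the assembly also called mm10). All are protein-coding. Promoters of Atp6v1g3 and Slc26a4, the 2 of the 3 rule genes for which one was found, of Foxi1 and of the pump subunit gene Atp6v1b1 are shown because they carry a forkhead-type motif. Each window runs from 250 bases before to 50 bases after the RefSeq start site (GRCm38.p6), 5′ to 3′ on the gene's strand, and capitals mark TGTTTNC or its reverse complement GNAAACA.
Atp6v1g3, chr1:138273488-138273787, plus strand: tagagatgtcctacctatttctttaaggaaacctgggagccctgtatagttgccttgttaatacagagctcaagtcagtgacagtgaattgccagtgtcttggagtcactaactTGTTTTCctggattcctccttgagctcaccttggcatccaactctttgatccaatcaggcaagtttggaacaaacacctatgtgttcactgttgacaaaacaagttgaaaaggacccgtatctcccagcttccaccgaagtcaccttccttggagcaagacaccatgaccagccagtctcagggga
Slc26a4, chr12:31559935-31560234, minus strand: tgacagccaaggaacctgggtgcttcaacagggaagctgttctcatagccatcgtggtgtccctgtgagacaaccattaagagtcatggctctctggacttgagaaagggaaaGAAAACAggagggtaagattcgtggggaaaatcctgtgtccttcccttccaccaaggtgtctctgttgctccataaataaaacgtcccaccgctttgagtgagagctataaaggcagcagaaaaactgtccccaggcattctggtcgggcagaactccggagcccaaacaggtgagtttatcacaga
Foxi1, chr11:34208040-34208339, minus strand: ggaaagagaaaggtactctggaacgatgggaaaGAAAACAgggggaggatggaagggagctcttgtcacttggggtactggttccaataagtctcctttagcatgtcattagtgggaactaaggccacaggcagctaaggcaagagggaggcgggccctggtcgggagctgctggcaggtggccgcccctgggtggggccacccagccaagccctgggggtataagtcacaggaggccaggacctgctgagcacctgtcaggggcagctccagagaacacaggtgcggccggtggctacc
Atp6v1b1, chr6:83742767-83743066, plus strand: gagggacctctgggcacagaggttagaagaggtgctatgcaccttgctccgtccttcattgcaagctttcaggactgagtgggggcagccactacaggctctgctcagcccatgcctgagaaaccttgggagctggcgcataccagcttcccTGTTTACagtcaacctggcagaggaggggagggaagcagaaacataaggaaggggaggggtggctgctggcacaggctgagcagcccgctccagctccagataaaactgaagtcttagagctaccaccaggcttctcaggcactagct
The motif begins 136 bases upstream of the start site in Atp6v1g3, 137 in Slc26a4, 217 in Foxi1 and 98 in Atp6v1b1. It occurred in 20.5% of all 27025 promoters searched on both strands, and in 2 of the 9 promoters found for the 15 general intercalated cell genes described later (22.2%), a share near that of all promoters. The stricter form TGTTTAC, which is contained in TGTTTNC, occurred in 3.55% of all promoters and, of the genes printed here, in Atp6v1b1. These matches describe letters in a window and say nothing of binding.

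The values that chose the spots are given as a description. The lowest share among members was 1373, 1401, 1033 and 963 CPM of the rule genes (counts as a share of all UMIs, on the CPM scale) in normal 1, normal 2, ischemic 1 and ischemic 2, and the highest share among the other spots was 1355, 1398, 1022 and 953. The median member held 33, 24, 15 and 11 rule-gene UMIs, and 0, 3, 6 and 13 members held fewer than 5. Membership therefore rested on fewer molecules in the ischemic sections. Over all spots that met the UMI minimum, Atp6v1g3 stood at 183, 224, 195 and 174 CPM with no scaling between libraries, so the conditions overlapped. Members held 51.5% and 52.7% of those Atp6v1g3 UMIs in normal 1 and 2, against 33.2% and 37.6% in ischemic 1 and 2. Slc4a1 over all spots was 15.0 and 21.6 CPM in the normal and 1.32 and 1.31 in the ischemic sections, and Slc26a4 was 18.1 and 24.5 against 9.74 and 7.15, neither overlapping.

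**Figure D1:**
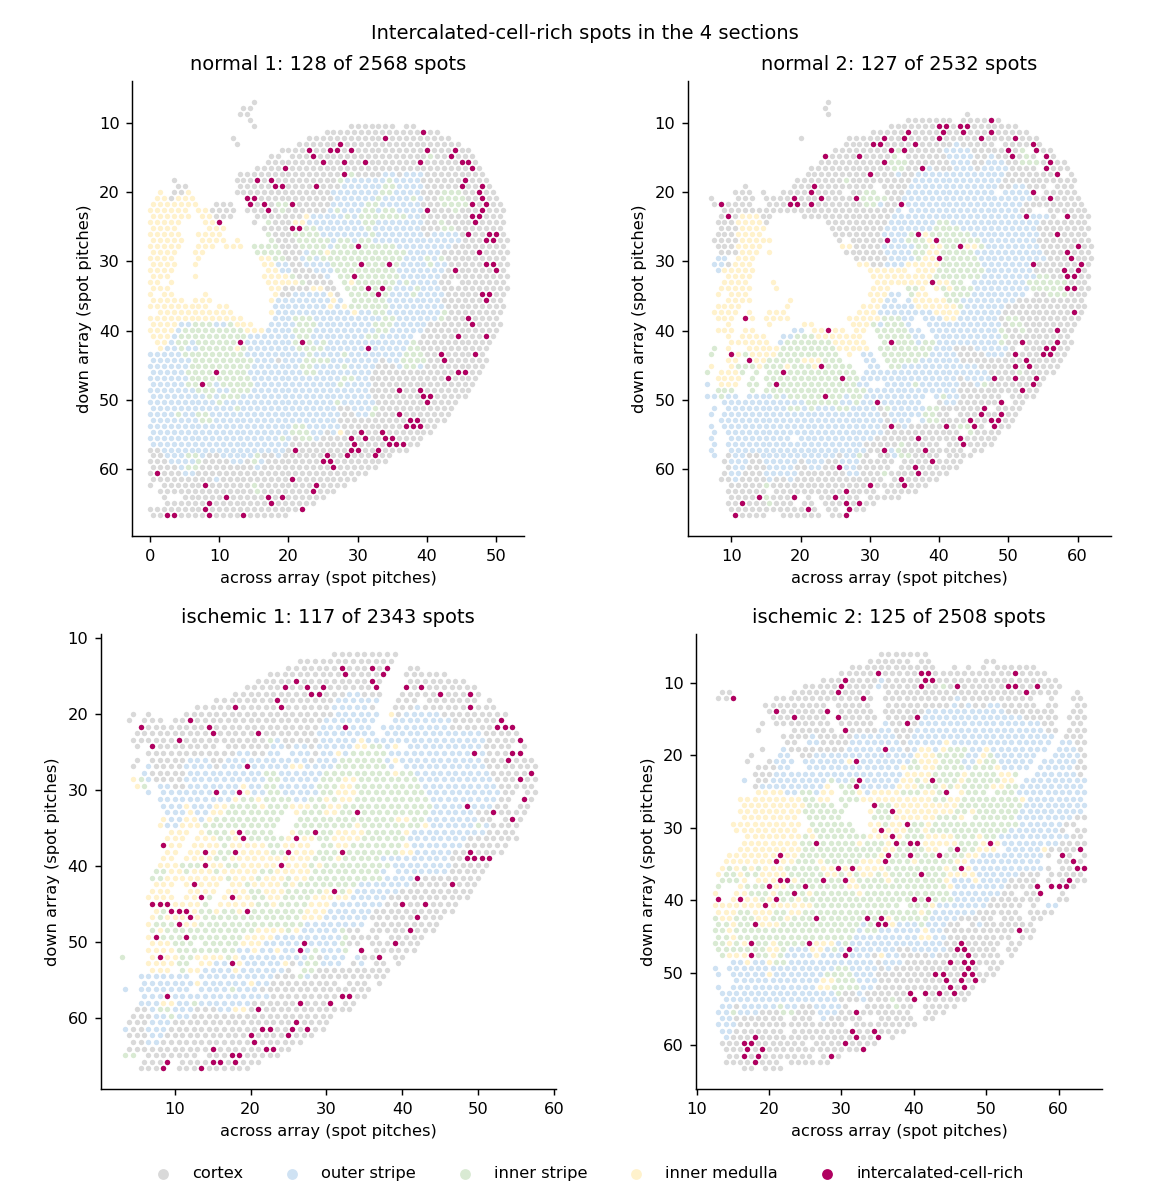
Maps of the 4 sections, with axes in spot pitches across and down the array and each dot a spot with at least 2000 UMIs. Pale colours give the kidney zone assigned to a spot and dark magenta marks the intercalated-cell-rich spots, which follow the cortical rim in normal 1 and 2 and also appear in the inner zones in ischemic 1 and 2.

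Intercalated-cell-rich spots lay mostly in the cortex of normal kidneys and less so in ischemic kidneys. The share of members assigned to cortex was 88.3% (95% exact binomial interval 81.4 to 93.3%) in normal 1 and 83.5% (75.8 to 89.5%) in normal 2, against 65.8% (56.5 to 74.3%) in ischemic 1 and 59.2% (50.1 to 67.9%) in ischemic 2. The intervals cover counting error only. The cortex share of the other spots was also lower in the ischemic sections, at 43.2%, 42.4%, 38.1% and 33.5%. Inner medullary spots made up 0 of 128 and 3 of 127 normal members, or 0% and 2.36%, and 21.4% and 19.2% of ischemic members. Among the other spots the inner medulla took 8.44%, 10.5%, 13.5% and 15.0%. Zones were assigned from marker genes of the spot and its neighbours. The inner medulla list includes the principal cell genes Aqp2 and Fxyd4, so the assignment is not free of collecting duct expression. The outer stripe list includes Slc7a13, at 689 and 512 CPM in normal and 14.9 and 15.8 CPM in ischemic other spots. The cortex list includes Slc34a1, at a log2 fold change of -3.38 in other spots of cortex. A zone may thus hold different tissue in normal and ischemic sections, also where cortex spots alone are compared. This was not tested. With 2 sections a side, an exact permutation test of any such share cannot give a two-sided p below 0.333. Members also lay next to each other, since 18.6%, 12.1%, 11.6% and 15.5% of the neighbours of members were members, against 4.39 to 4.71% of the neighbours of other spots.

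**Figure D2:**
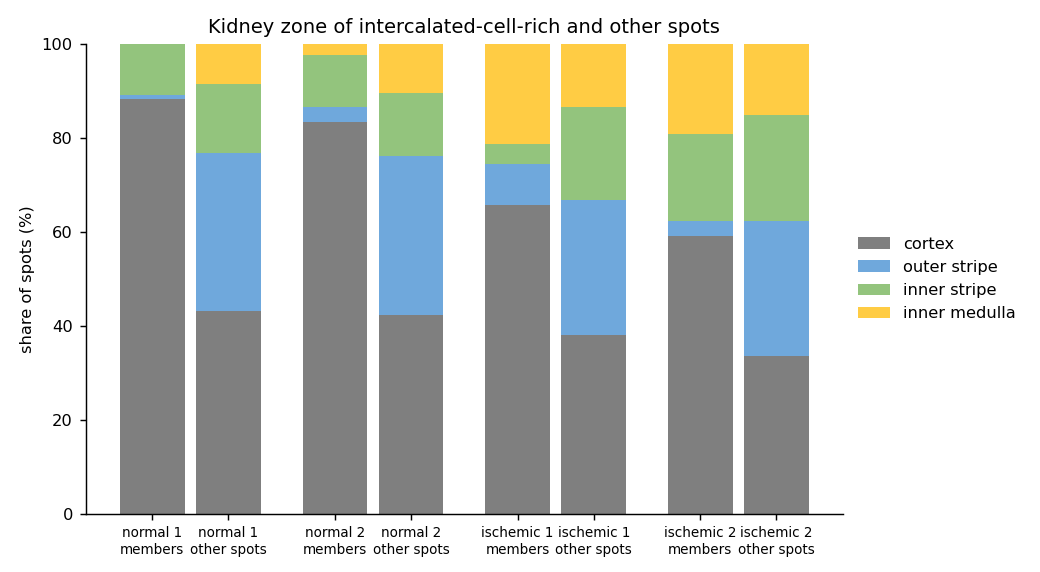
Share of spots (%) in each kidney zone, with 1 stacked bar for the members and 1 for the other spots of each section. Cortex makes up 88.3% and 83.5% of normal members and 65.8% and 59.2% of ischemic members, and inner medulla appears in the ischemic members at 21.4% and 19.2%.

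The label of the spots was checked against 15 general intercalated cell genes that the rule had not used. All 15 were higher in members than in other spots in each of the 4 sections, where 16.8% of 14905 genes were, and so were 5 of 5 type B genes and 5 of 6 type A genes, the exception being the bicarbonate exchanger Slc26a7. The rule genes and these genes share spots, so this is a description and not a test. Foxi1 was 14.6, 14.1, 7.86 and 7.72-fold higher in members of normal 1, normal 2, ischemic 1 and ischemic 2, the type B receptor gene Insrr 20.9, 15.6, 9.39 and 16.2-fold, and Hepacam2, a membrane protein gene of intercalated cells, 21.7, 13.7, 14.1 and 10.5-fold. Spots rich in intercalated cells were rich in their neighbours as well. Of 10 principal cell genes 8, and of 8 connecting and distal convoluted tubule genes 7, were higher in members in every section. Klk1, the tissue kallikrein of the connecting tubule, took 5.47% and 5.31% of all member UMIs in normal 1 and 2, against 0.963% and 1.11% in ischemic 1 and 2. It has near-identical paralogs, Klk1b5 among them, whose reads the counting could have split, so these levels are uncertain. Of 6 thick ascending limb genes 5 were lower in members in every section, where 16.6% of genes were.

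By the rule for named genes, the genes highest in members over other spots in normal sections, beside the rule genes, were Klk1b5, Klk1, Atp6v0d2, Insrr, Trpv5, Foxi1, Malrd1, Hepacam2, Spink8 and Hmx2. In ischemic sections they were Kcne1, Trpv5, Klk1, Scnn1g, Pgam2, Foxi1, Slc8a1, Tmem52b, Rhbg and Ccl21a. Klk1, Trpv5 and Foxi1 stood in both lists, and the principal or connecting tubule genes Trpv5, Klk1, Scnn1g and Slc8a1 stood among those of the ischemic sections. Trpv5, the apical calcium channel of the connecting tubule, was 15.5, 16.2, 11.8 and 12.3-fold higher in members. Atp6v0d2 was 19.4, 15.9, 4.37 and 4.58-fold higher, so its excess in members was smaller in both ischemic sections than in both normal sections.

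In intercalated-cell-rich spots the ischemic and the normal sections differed for 3628 of 10003 genes (36.3%) at an adjusted p under 0.05 (edgeR quasi-likelihood test on summed counts), 1762 higher (17.6%) and 1866 lower (18.7%). In the other spots 9167 of 15215 (60.2%) differed, 4685 higher (30.8%) and 4482 lower (29.5%). The member sums held 2013692, 1522365, 1323051 and 1172781 UMIs in normal 1, normal 2, ischemic 1 and ischemic 2, fewer than the sums of other spots. CPM levels by condition are scaled by the trimmed mean of M values (TMM), which moved the ischemic against the normal member libraries by -0.23 on the log2 scale. The median log2 fold change of all genes tested in members was 0.04. DESeq2 called 1820 genes in members, and leaving out 1 section called 2797 to 3298.

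The rule genes had lower levels in the ischemic members, which is given with no test because they chose the spots. Atp6v1g3 measured 2239.7 and 2135 CPM in normal and 1342 and 1268 CPM in ischemic sections. Slc4a1 measured 101 and 87.5 CPM in normal and 4.68 and 6.77 CPM in ischemic sections, and Slc26a4 234 and 222 CPM in normal and 80.2 and 72.2 CPM in ischemic sections. No ischemic section reached a normal section for any of the 3. At least 1 UMI of Slc4a1 was present in 60.2% and 52.0% of normal members and in 5.98% and 7.20% of ischemic members, against 13.7%, 13.5%, 1.39% and 0.965% of other spots. Thinned to 2000 UMIs a spot, the shares in members were 18.8%, 18.9%, 0% and 0.8%. Slc26a4 was found in 85.9%, 78.0%, 48.7% and 39.2% of members. When spots were ranked on a random 50% of their UMIs and measured on the rest, Atp6v1g3 in members was 1957, 2002, 1298 and 1217 CPM without TMM scaling. Slc4a1 is shared with red blood cells, and the summed level of 5 red blood cell genes in members was 4542 and 4565 CPM in the normal and 777 and 2976 CPM in the ischemic sections. Their part in the Slc4a1 level was not tested.

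Intercalated cell genes fell together in the ischemic members, which had themselves been chosen by genes of the same cells. Of the Atp6v1g3 UMIs in spots that met the UMI minimum, members took 33.2% and 37.6% in ischemic 1 and 2. They took 51.5% and 52.7% in normal 1 and 2. Whether this choice of spots lowered other genes of these cells was not tested. Of the 15 general genes 12 fell, 1 rose and 2 did not pass, with a median log2 fold change of -0.96 against 0.04 over all genes tested. Of all genes tested in members 18.7% fell and 17.6% rose. In other spots 8 of the 15 fell and 5 rose, with a median of -0.39, where 29.5% of all genes tested fell and 30.8% rose. Foxi1 measured 136 and 121 CPM in normal and 54.8 and 57.2 CPM in ischemic sections in members. It fell in the ischemic members (log2 fold change -1.19 ± 0.15, adjusted p = 2.09e-08), and the conditions did not overlap.

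Among the pump subunits that intercalated cells use in place of common forms, Atp6v1b1, the B1 subunit, measured 176 and 186 CPM in normal and 59.5 and 64.7 CPM in ischemic sections (log2 fold change -1.53 ± 0.15, adjusted p = 1.21e-11). Atp6v1c2, the C2 subunit, measured 233 and 203 CPM in normal and 52.8 and 34.6 CPM in ischemic sections (log2 fold change -2.30 ± 0.16, adjusted p = 1.59e-15). Atp6v0d2, a subunit of the membrane part of the pump, measured 173 and 137 CPM in normal and 79.5 and 83.5 CPM in ischemic sections (log2 fold change -0.92 ± 0.15, adjusted p = 1.56e-06). Those subunits fell without overlap. Atp6v0a4, the a4 subunit of the membrane part, did not pass, with 121, 111, 106 and 126 CPM in normal 1, normal 2, ischemic 1 and ischemic 2 (log2 fold change 0.01 ± 0.14, adjusted p = 0.972). Of 16 pump subunit and accessory genes used by many cell types, 13 fell, 1 rose and 2 did not pass in members, with a median of -0.69. Of all genes tested in members 18.7% fell and 17.6% rose. In the other spots 9 of the 16 fell and 1 rose, with a median of -0.33. There 60.2% of all genes tested were called, 29.5% lower and 30.8% higher. Atp6v0c, the proteolipid ring subunit, measured 1524 and 1241 CPM in normal and 737 and 675 CPM in ischemic sections in members (log2 fold change -0.96 ± 0.12, adjusted p = 8.10e-09), and Atp6v1e1, a stalk subunit, measured 1045 and 889 CPM in normal and 421 and 365 CPM in ischemic sections (log2 fold change -1.29 ± 0.12, adjusted p = 6.47e-12). Atp6v0a1 was the gene that rose, by 0.80 ± 0.22 on the log2 scale (adjusted p = 0.00282).

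Both ammonia channel genes fell. Rhcg, apical and basolateral, measured 457 and 440.1 CPM in normal and 98.9 and 96.3 CPM in ischemic sections (log2 fold change -2.19 ± 0.13, adjusted p = 7.32e-18), and Rhbg, basolateral, 213 and 207 CPM in normal and 69.5 and 68.4 CPM in ischemic sections (log2 fold change -1.60 ± 0.14, adjusted p = 1.27e-12). Bsnd (barttin), a chloride channel subunit gene, fell by 1.99 on the log2 scale (adjusted p = 3.51e-11). Car2, cytosolic carbonic anhydrase, measured 607 and 645 CPM in normal and 408 and 433 CPM in ischemic sections (log2 fold change -0.57 ± 0.12, adjusted p = 1.11e-04). Car15, a membrane-bound carbonic anhydrase, measured 557, 482, 510.0 and 500.1 CPM in the 4 sections and did not pass (log2 fold change -0.03 ± 0.12, adjusted p = 0.859). Thus both ammonia channel genes and Bsnd were lower in both ischemic sections while Car15 overlapped between conditions. Tmem213 (log2 fold change -0.96 ± 0.12, adjusted p = 5.84e-09), Hepacam2 (log2 fold change -0.90 ± 0.24, adjusted p = 0.00255) and Defb1, a beta-defensin of the distal nephron (log2 fold change -0.42 ± 0.11, adjusted p = 0.00322), fell too. Lgals3 (galectin 3) rose, from 128 and 132 CPM to 400.4 and 338 CPM (log2 fold change 1.52 ± 0.13, adjusted p = 2.55e-13) and is known from macrophages as well. In cortex spots alone 11 of the 15 fell, 1 rose and the median was -0.97, where 2556 of 9267 genes (27.6%) were called, 1231 higher and 1325 lower. Hepacam2 lost its call there, at -0.40 (adjusted p = 0.219), as it did without ischemic 2, at -0.70 (adjusted p = 0.061), and Defb1 lost its call without ischemic 1, at -0.34 (adjusted p = 0.12).

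**Figure D3:**
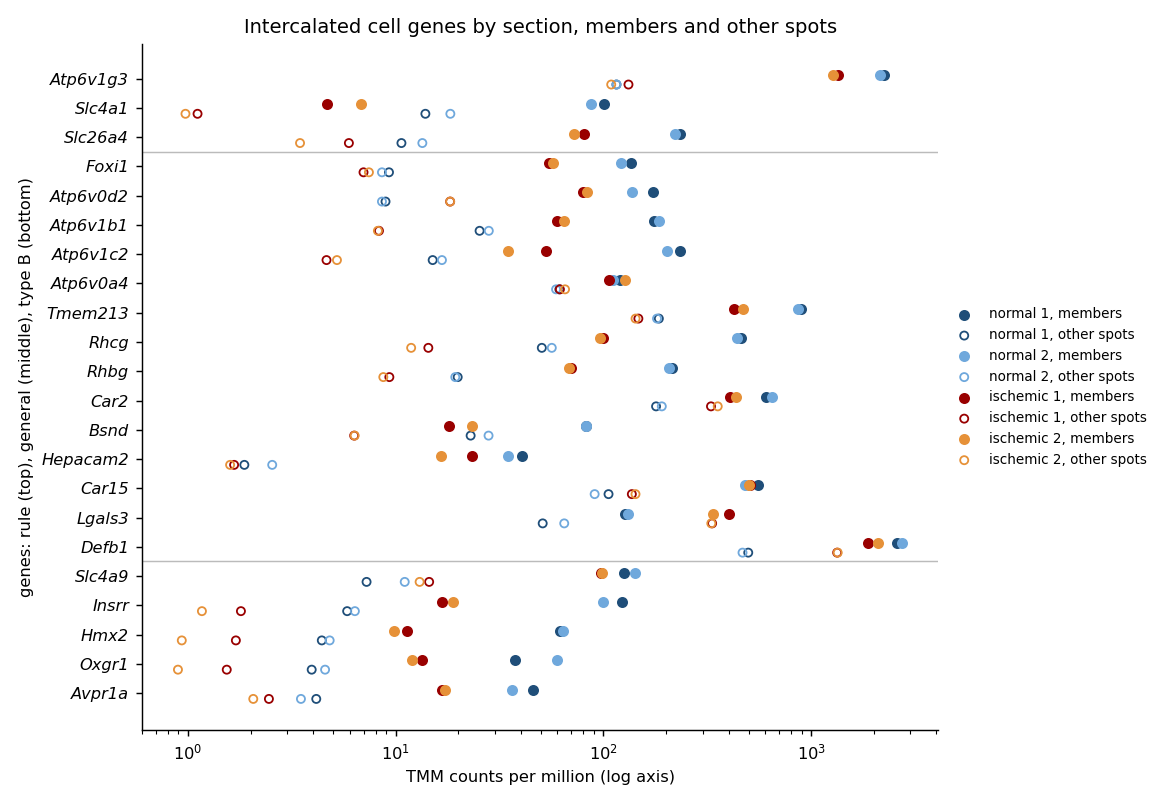
TMM-scaled CPM (log axis) of the 3 rule genes, 14 of the 15 general and 5 type B intercalated cell genes, with 1 point for each section, filled for members and open for other spots. Blue points (normal 1, 2) lie to the right of red and orange points (ischemic 1, 2) among the members for most genes, whereas Atp6v0a4 and Car15 overlap and Lgals3 lies the other way.

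Type B genes fell in the ischemic members, all 5 of them, with a median log2 fold change of -1.89, where 18.7% of all genes tested fell. Insrr, an alkali-sensing receptor, measured 122 and 99.3 CPM in normal and 16.7 and 18.8 CPM in ischemic sections (log2 fold change -2.64 ± 0.20, adjusted p = 1.13e-14). The homeobox gene Hmx2 measured 61.9 and 63.8 CPM in normal and 11.4 and 9.78 CPM in ischemic sections (log2 fold change -2.55 ± 0.24, adjusted p = 1.07e-11). Both stood several-fold lower in each ischemic section than in each normal section. Oxgr1, the receptor for alpha-ketoglutarate, fell by 1.89 and Avpr1a, the vasopressin V1a receptor, by 1.27 on the log2 scale (adjusted p = 2.15e-07 and 4.25e-05). Slc4a9, a basolateral anion exchanger of type B cells, measured 125 and 142 CPM in normal and 96.9 and 98.5 CPM in ischemic sections and fell least (log2 fold change -0.44 ± 0.14, adjusted p = 0.0118). Its call was lost without ischemic 1, at -0.43 (adjusted p = 0.078). In other spots 4 of the 5 fell too and 1 rose, Slc4a9, at 0.55 on the log2 scale, where 29.5% of all genes tested fell. The median of the 5 there was -1.83. The 5 also fell in cortex spots alone, with a median of -1.76.

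Among type A genes, of 5 tested, 2 fell and 3 did not pass, with a median of 0.11. That share called was near the 36.3% of all genes in members, where 18.7% fell and 17.6% rose. Aqp6, an intracellular anion-permeable aquaporin, measured 65.6 and 48.0 CPM in normal and 42.8 and 35.3 CPM in ischemic sections (log2 fold change -0.54 ± 0.19, adjusted p = 0.0223), and Kit, a receptor tyrosine kinase, 18.1 and 27.0 CPM in normal and 8.02 and 10.5 CPM in ischemic sections (log2 fold change -1.25 ± 0.33, adjusted p = 0.00226). Aqp6 lost its call in cortex spots alone, at -0.18 (adjusted p = 0.626), without normal 1, at -0.31 (adjusted p = 0.36), and without ischemic 2, at -0.43 (adjusted p = 0.16). Adgrf5, Dmrt2 and P2ry14 did not pass. P2ry14, a UDP-glucose receptor, measured 5.87, 7.89, 13.4 and 12.0 CPM in the 4 sections (log2 fold change 0.91 ± 0.38, adjusted p = 0.0592), so that every ischemic section lay above both normal sections without passing the test. Slc26a7 had too few counts to be tested. The change of type A genes against that of type B genes was not tested.

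Principal cell genes of the same spots split. Of 10 genes, 3 rose, 4 fell and 3 did not pass, with a median of -0.24. Of all genes tested in members 17.6% rose and 18.7% fell. Hsd11b2, which guards the mineralocorticoid receptor, fell (log2 fold change -1.21 ± 0.12, adjusted p = 1.21e-10), and so did the vasopressin V2 receptor gene Avpr2 (log2 fold change -0.76 ± 0.18, adjusted p = 8.39e-04) and the sodium channel subunit genes Scnn1a (log2 fold change -0.73 ± 0.15, adjusted p = 1.73e-04) and Scnn1b (log2 fold change -0.35 ± 0.12, adjusted p = 0.0213). Aqp2, the vasopressin-regulated water channel, measured 572 and 546 CPM in normal and 658 and 754 CPM in ischemic sections and rose (log2 fold change 0.34 ± 0.12, adjusted p = 0.0167). Aqp4, a basolateral water channel, measured 10.7 and 5.92 CPM in normal and 18.0 and 42.9 CPM in ischemic sections (log2 fold change 1.81 ± 0.35, adjusted p = 4.77e-05), and Elf5, a transcription factor gene, 1.07 and 1.97 CPM in normal and 8.69 and 9.78 CPM in ischemic sections (log2 fold change 2.59 ± 0.57, adjusted p = 3.15e-04). In normal members Elf5 lay at or under the level of 3 counts, 1.60 and 1.97 CPM in normal 1 and 2. It could thus be tested only through the ischemic sections. The ischemic members also held the larger share of inner medullary spots, at 21.4% and 19.2% against 0% and 2.36%. In cortex spots alone none of the 10 rose and 2 fell by the edgeR test, Avpr2 and Hsd11b2. There Aqp2 was at 0.15 (adjusted p = 0.541), and Aqp4 and Elf5 had too few counts to be tested. Aqp2 also lost its call without normal 1 (adjusted p = 0.060), without normal 2 (adjusted p = 0.14) and without ischemic 2 (adjusted p = 0.29). Scnn1b lost its call without normal 1 (adjusted p = 0.082) and without ischemic 2 (adjusted p = 0.24), and Elf5 without normal 1 (adjusted p = 0.051).

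Connecting and distal convoluted tubule genes fell as well. Of 8 genes 7 fell and 1 did not pass, with a median of -2.50, where 18.7% of all genes tested in members fell. In other spots 5 of the 8 fell and 3 did not pass, with a median of -1.70, where 29.5% of all genes tested fell. Calb1 (calbindin D28k) measured 1339 and 1446 CPM in normal and 121 and 104 CPM in ischemic sections (log2 fold change -3.62 ± 0.13, adjusted p = 1.28e-24), and S100g (calbindin D9k) 21755 and 21611 CPM in normal and 3966 and 3609 CPM in ischemic sections (log2 fold change -2.51 ± 0.12, adjusted p = 6.11e-21). Slc8a1, the sodium-calcium exchanger, measured 232 and 278 CPM in normal and 54.1 and 35.3 CPM in ischemic sections (log2 fold change -2.48 ± 0.16, adjusted p = 1.54e-16). Klk1, uncertain for its paralogs, fell by 2.60 on the log2 scale (adjusted p = 5.86e-21). Calcium-handling genes of the connecting tubule were thus several-fold lower in both ischemic sections, except Trpv5, which measured 29.9, 28.3, 34.1 and 30.1 CPM in the 4 sections (log2 fold change 0.15 ± 0.22, adjusted p = 0.641). The thiazide-sensitive transporter gene Slc12a3 fell (log2 fold change -2.01 ± 0.13, adjusted p = 6.91e-17). Pvalb (parvalbumin) was at 31.5 and 50.6 CPM in the normal members and at 0 UMIs in both ischemic member sums, at least 19.3-fold lower against a floor of 3 counts for each section. In cortex spots alone, where 27.6% of genes were called, 6 of the 8 fell and Trpv5 rose, at 0.60 (adjusted p = 0.0366).

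Injury genes rose in the spots. Of 12 genes 11 rose and Vcam1 did not pass (log2 fold change 0.58 ± 0.33, adjusted p = 0.171), with a median of 3.69. Of all genes tested in members 17.6% rose. In other spots all 12 injury genes rose, with a median of 4.61, where 30.8% of all genes tested rose. Havcr1 (kidney injury molecule 1) was at 0 UMIs in both normal member sums and at 514 and 356 CPM in the ischemic sums, at least 243-fold higher against the floor of 3 counts for each section. In other spots it stood at 1.25 and 2.34 CPM in normal and 1403 and 1403 CPM in ischemic sections, so its ischemic level in members was below that of other spots. Lcn2 (lipocalin 2), a gene of the injured distal nephron, measured 5.34 and 9.21 CPM in normal and 2562 and 4158 CPM in ischemic sections (log2 fold change 8.88 ± 0.24, adjusted p = 3.93e-29). Spp1 (osteopontin) measured 2284 and 2004 CPM in normal and 37867 and 44183 CPM in ischemic sections (log2 fold change 4.27 ± 0.13, adjusted p = 7.00e-27) and made up 4.28% and 5.01% of ischemic member UMIs. Clu (clusterin) measured 1294 and 1365 CPM in normal and 8168 and 8864 CPM in ischemic sections (log2 fold change 2.69 ± 0.12, adjusted p = 7.92e-22). Spp1 thus took more of the ischemic member UMIs than Klk1 did.

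The 10 largest fitted rises in members, among genes at 20 CPM or more in both ischemic sections, were, in alphabetical order, Akr1b8, Grp, Havcr1, Krt20, Lcn2, S100a8, Socs3, Sprr2f, Timp1 and Vgf. Sprr2f, a small proline-rich protein gene, was at 0 UMIs in the normal sums and 217 and 213 CPM in the ischemic sums, at least 120-fold higher. Grp, Krt20 and Vgf were likewise at 0 in the normal sums and at least 27.3-fold, 25.1-fold and 17.5-fold higher, so that the order among the 10 is not fully known. Timp1, an inhibitor of metalloproteinases, measured 1.60 and 1.97 CPM in normal and 235 and 246 CPM in ischemic sections, and Socs3, a feedback inhibitor of cytokine signalling, 0 and 1.32 CPM in normal and 49.5 and 48.1 CPM in ischemic sections. The 10 largest fitted falls, by the same minimum in the normal sections, were Pvalb, Egf, Inmt, BC049987, Hsd3b2, Slc22a22, Clec2h, Slc22a7, Slc7a13 and Eci3. Egf, made in the thick ascending limb and distal convoluted tubule, measured 378 and 440.1 CPM in normal and 6.68 and 3.01 CPM in ischemic sections (log2 fold change -6.34 ± 0.22, adjusted p = 2.86e-25), and Slc7a13, a transporter of the proximal straight tubule, 128 and 103 CPM in normal and 4.68 and 3.01 CPM in ischemic sections (log2 fold change -4.86 ± 0.27, adjusted p = 1.05e-18). All 10 proximal tubule genes listed fell in members and in other spots. Of 6 thick ascending limb genes 5 fell and 1 rose in members. Of all genes tested 18.7% fell in members and 29.5% in other spots.

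Few immune genes had enough counts in members. Of 10 chemoattractant genes 4 could be tested: Cxcl1, Cxcl10 and Ccl20 rose and Cxcl12 fell. Ccl20 had enough counts only through the ischemic sections, so that its rise and its being tested go together. Ccl20, which attracts cells through Ccr6, measured 0 and 1.32 CPM in normal and 15.4 and 10.5 CPM in ischemic sections in members (log2 fold change 4.30 ± 0.66, adjusted p = 1.08e-06) and 0.233 and 0.517 CPM in normal and 4.18 and 3.15 CPM in ischemic sections in other spots. The call for Cxcl10 was lost in cortex spots alone, at 0.51 (adjusted p = 0.518), and without normal 2, at 0.65 (adjusted p = 0.11), and that for Cxcl12 without ischemic 1, at -0.51 (adjusted p = 0.051). The neutrophil genes S100a8 and S100a9, the 2 of 6 that could be tested, rose, S100a8 to 32.8 and 32.3 CPM in members against 76.0 and 75.5 CPM in other spots. Both had enough counts only through the ischemic sections, S100a8 with 1 and 0 UMIs in normal and 49 and 43 in ischemic members. Their rise and their being tested thus go together, and the count of rises is no separate support. The defining neutrophil receptor gene Cxcr2 was at 0 UMIs in all 4 member sums, and the summed level of the 6 genes was 1.32 to 2.13 CPM in normal and 73.7 to 81.6 CPM in ischemic members. Of 6 macrophage genes tested 1 rose, 1 fell and 4 did not pass, a share called near the 36.3% of all genes in members. Summed levels of the macrophage genes were 150 to 174 CPM in normal and 150 to 189 CPM in ischemic members. None of 5 T cell genes could be tested in members. Of 5 endothelial genes 1 rose and 1 fell, a share near the 36.3% of all genes called in members.

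**Figure D4:**
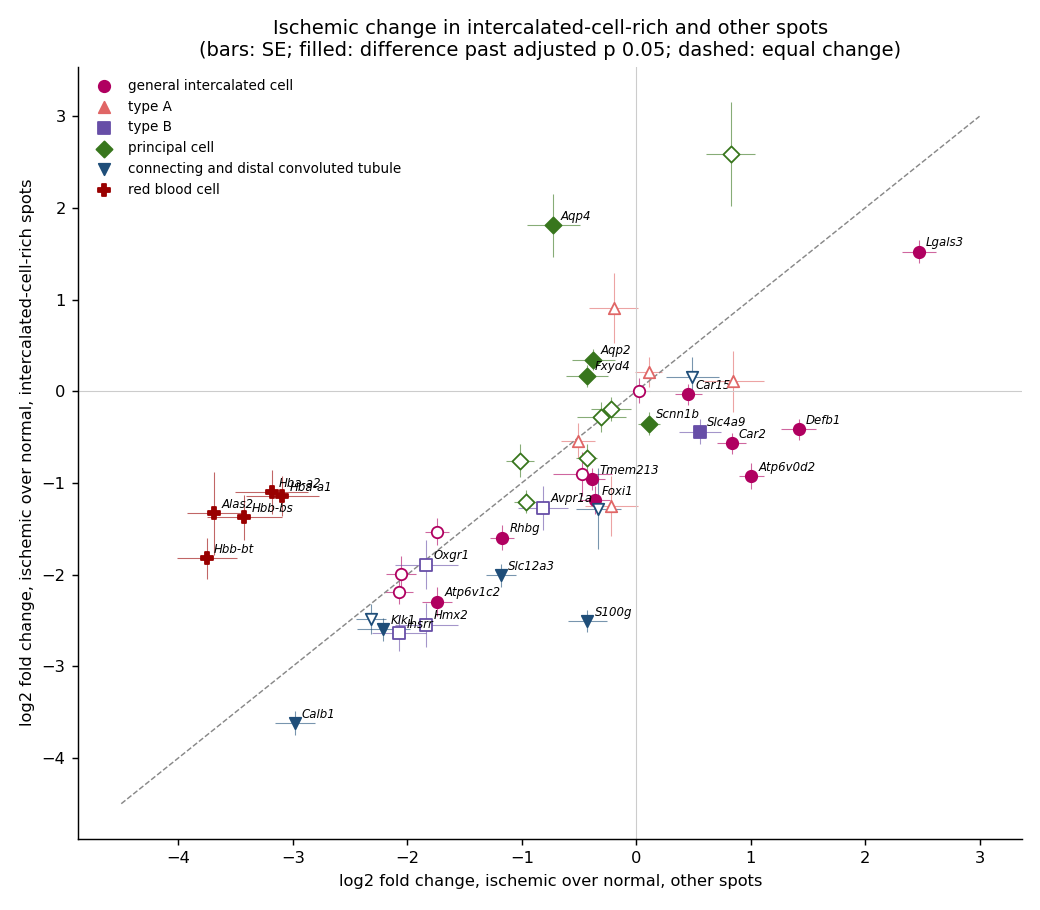
Log2 fold change of ischemic over normal sections in the other spots (horizontal) and in the intercalated-cell-rich spots (vertical) for genes of 6 lists. Each gene is 1 point with bars of 1 approximate SE. Filled points passed the test of the difference. General intercalated cell genes that pass lie under the dashed line of equal change, red blood cell genes lie above it, and S100g stands at -0.43 and -2.51. Pvalb, at 0 in ischemic members, and 1 general gene are not drawn.

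The change in members was then set against the change in other spots of the same sections. In this test of the difference, with the section as a block, 657 of 14906 genes passed (4.41%), 327 with a higher (2.19%) and 330 with a lower change in members (2.21%). Of the 327, 273 had fallen in other spots, and of the 330, 225 had risen there. Of all genes tested in other spots 29.5% fell and 30.8% rose. The change in other spots is subtracted in the difference, so this split follows in part from how the difference is formed. Scaling by median-of-ratios size factors in edgeR moved the split to 453 higher and 224 lower. The count was 217 without ischemic 1, 308 without ischemic 2, 304 by DESeq2, 121 without the section block and 183 in cortex spots alone.

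Of the 15 general intercalated cell genes, 9 changed lower in members than in other spots, 0 higher and 6 did not pass. The median difference was -0.55. Atp6v0d2 measured 8.93 and 8.58 CPM in normal and 18.3 and 18.3 CPM in ischemic sections in other spots of all zones (difference -2.0 ± 0.15, adjusted p = 5.96e-23). Car2 measured 179 and 191 CPM in normal and 329 and 355 CPM in ischemic sections in other spots (difference -1.46 ± 0.11, adjusted p = 9.18e-22), and Defb1 498 and 467 CPM in normal and 1333 and 1341 CPM in ischemic sections (difference -1.90 ± 0.10, adjusted p = 1.88e-33). Over all zones these 3 genes rose in other spots and fell in members. In other spots of the cortex the rise did not appear: Atp6v0d2 was at 0.06 (adjusted p = 0.805), Car2 at -0.24 (adjusted p = 0.077), and Defb1 fell, at -0.63 (adjusted p = 0.00168). Lgals3 rose in both but less in members (difference -1.03 ± 0.13, adjusted p = 5.79e-10). Foxi1 (difference -0.89 ± 0.19, adjusted p = 4.40e-04), Tmem213, Car15, Atp6v1c2 and Rhbg passed with smaller differences. Those that did not pass included Atp6v1b1 (difference 0.15 ± 0.16, adjusted p = 0.757), Rhcg, Bsnd, Hepacam2 and Atp6v0a4, and Rhcg, for one, measured 50.5 and 56.4 CPM in normal and 14.4 and 11.9 CPM in ischemic sections in other spots. Of the 5 type B genes Slc4a9 passed (difference -1.07 ± 0.16, adjusted p = 2.81e-07), and 0 of 6 type A genes did. Tmem213 lost its call without ischemic 1 (adjusted p = 0.12), Car15 without ischemic 1 (adjusted p = 0.054) or ischemic 2 (adjusted p = 0.12), Atp6v1c2 without normal 1 (adjusted p = 0.60) or ischemic 2 (adjusted p = 0.80), and Rhbg without any of the 4 sections (adjusted p = 0.25 to 0.56).

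This pattern was smaller when members of cortex were set against other spots of cortex. There 3 of the 15 general genes passed, all lower in members, with a median difference of -0.23, where 183 of 12912 genes (1.42%) passed, 58 higher and 125 lower in members. They were Car2, at -0.87 (adjusted p = 6.82e-06), Atp6v0d2, at -1.08 (adjusted p = 0.00277), and Lgals3, at -1.22 (adjusted p = 5.54e-07). The difference of these 3 passed under every alternative run. Foxi1 was at -0.43 (adjusted p = 0.493), Defb1 at -0.17 (adjusted p = 0.557) and Slc4a9 at -0.49 (adjusted p = 0.333). The median ratio of members over other spots of the 15 genes, on the log2 scale, was 2.40, 2.55, 1.91 and 2.17 in normal 1, normal 2, ischemic 1 and ischemic 2 over all zones. It was 2.05, 1.97, 2.06 and 2.15 in cortex alone. The lower median ratio of the ischemic sections thus did not appear within the spots assigned to cortex, but single genes differed. Foxi1 was 11.4 and 10.4-fold higher in normal and 7.22 and 9.44-fold in ischemic members of cortex. Tmem213 was 3.58 and 3.80-fold higher in normal and 2.75 and 3.53-fold in ischemic members. Car15 went the other way, and the remaining general genes that had not passed overlapped. The type B genes Slc4a9, Insrr, Hmx2 and Avpr1a were lower in both ischemic sections, and Oxgr1 overlapped. With spots thinned to 2000 UMIs before ranking, the ratios over all zones were 2.36, 2.14, 1.81 and 1.68.

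**Figure D5:**
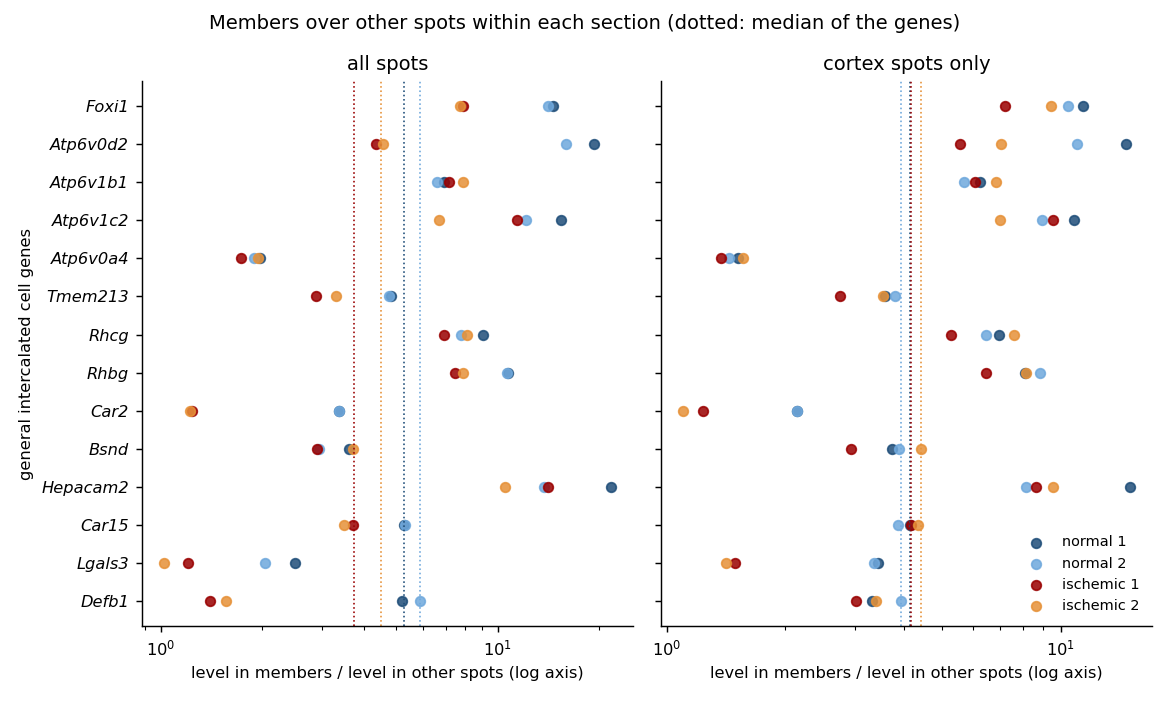
Level in members divided by level in other spots (log axis) for 14 of the 15 general intercalated cell genes in each section, over all spots on the left and in cortex spots on the right, with dotted lines at each section's median over the 15. Over all spots the ischemic medians lie left of the normal ones, and in the cortex all 4 lie close together. There Car2, Atp6v0d2 and Lgals3, whose difference passed, and Foxi1 and Tmem213, whose difference did not, still lie left in both ischemic sections.

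The neighbouring cell genes also shifted. S100g passed with the lowest adjusted p of the listed genes (difference -2.14 ± 0.10, adjusted p = 1.08e-40), with ratios of members over other spots of 13.6, 12.8, 2.85 and 3.15, and it passed in cortex alone, at -1.78 (adjusted p = 1.46e-12). Slc12a3 passed as well (difference -0.89 ± 0.13, adjusted p = 8.97e-08) and in cortex alone, at -0.72 (adjusted p = 0.00138). Aqp2 (difference 0.68 ± 0.11, adjusted p = 3.27e-06), Fxyd4 and Aqp4 changed higher in members, Scnn1b changed lower (difference -0.53 ± 0.14, adjusted p = 0.00703), and the other 6 of the 10 principal cell genes did not pass. In cortex alone Aqp2 was at -0.38 (adjusted p = 0.282), Fxyd4 at -0.27 (adjusted p = 0.503) Aqp4 at 0.28 (adjusted p = 0.982) and Scnn1b at -0.15 (adjusted p = 0.799), so that none of the 4 passed there and Aqp2 and Fxyd4 turned direction. Without ischemic 1 neither Aqp2 (adjusted p = 0.23) nor Fxyd4 (adjusted p = 0.15) passed, nor did Fxyd4 without ischemic 2 (adjusted p = 0.17). Scnn1b did not pass without normal 1 (adjusted p = 0.27), ischemic 1 (adjusted p = 0.074) or ischemic 2 (adjusted p = 0.30). Of 12 injury genes 1 changed higher in members, Krt18 (difference 0.59 ± 0.15, adjusted p = 0.00673), 2 lower, Clu (difference -1.55 ± 0.10, adjusted p = 1.10e-26) and Spp1 (difference -0.89 ± 0.11, adjusted p = 2.66e-11), and 9 did not pass. In cortex alone Clu, at -0.74 (adjusted p = 1.48e-05), and Spp1, at -0.99 (adjusted p = 2.16e-08), passed and Krt18, at -0.36 (adjusted p = 0.704), did not and turned direction. Krt18 also did not pass without normal 2 (adjusted p = 0.44), ischemic 1 (adjusted p = 0.12) or ischemic 2 (adjusted p = 0.12).

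Red blood cell genes fell in both, but less in members than in other spots. All 5 (Hba-a1, Hba-a2, Hbb-bs, Hbb-bt and Alas2) fell in other spots by 3.09 to 3.75 on the log2 scale. In members they fell by 1.10 to 1.82. Of all genes tested 29.5% fell in other spots and 18.7% in members. Hbb-bs, a beta globin gene, measured 2373 and 2205 CPM in normal and 353 and 1399 CPM in ischemic sections in members and 5598 and 4651 CPM in normal and 333 and 656 CPM in ischemic sections in other spots (difference 1.79 ± 0.12, adjusted p = 2.27e-25). Members held less of it than other spots in both normal sections, with ratios of 0.424 and 0.474, and as much or more in the ischemic sections, with 1.06 and 2.13. Ischemic 2 stood above ischemic 1 for all 5 genes. The globin genes are near-identical pairs whose reads the counting could have split. The difference passed for all 5 in cortex alone, for 4 of 5 without ischemic 2, and for 0 of 5 without the section block. The 1 that did not pass without ischemic 2 was Alas2, at 1.58 (adjusted p = 0.65). The fall of Alas2 in members was lost without normal 1 (adjusted p = 0.11), normal 2 (adjusted p = 0.063) or ischemic 1 (adjusted p = 0.41). The fall in members passed for 1 of 5 in cortex alone and 0 of 5 by DESeq2.

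Of the 20 genes with the largest differences by the rule for named genes, 2 were on the intercalated cell lists, Atp6v0d2 and Defb1. The most positive were Krt19, Sprr1a, 9530034E10Rik, Tmem158, Slc14a2, Cyp7b1, Pigr, Cyp51, Ccl5 and Cyp4a14. Krt19, a keratin of simple epithelia, measured 0.534 and 3.95 CPM in normal and 28.1 and 46.6 CPM in ischemic sections in members and 20.8 and 43.3 CPM in normal and 29.1 and 39.7 CPM in ischemic sections in other spots (difference 4.01 ± 0.40, adjusted p = 2.86e-15). Pigr, the receptor that carries immunoglobulin across epithelia, measured 33.6, 39.5, 41.4 and 39.1 CPM in members and 135, 103, 27.0 and 24.3 CPM in other spots of the 4 sections (difference 2.37 ± 0.22, adjusted p = 1.18e-16). Other spots were thus lower in both ischemic sections while the 4 member sums lay close together, and with the top 10% of spots members fell as well, at -0.46 (adjusted p = 0.017). Krt19 at 3.31 (adjusted p = 0.00458), Sprr1a at 2.51 (adjusted p = 2.44e-05) and Pigr at 2.35 (adjusted p = 9.20e-07) passed in cortex alone, and the other 7 did not. Cyp7b1 did not pass without ischemic 1, at 1.85 (adjusted p = 0.24), nor 9530034E10Rik without normal 2, at 3.10 (adjusted p = 0.085). Slc14a2, the urea transporter of the inner medullary collecting duct and thin limbs, measured 0.534 and 2.63 CPM in normal and 76.2 and 79.0 CPM in ischemic sections in members (difference 2.89 ± 0.46, adjusted p = 1.01e-06) and was at 1.23 (adjusted p = 0.815) in cortex alone. The most negative were Gsta1, Rasd1, Adm, Krt80, S100g, Shisa4, Atp6v0d2, Defb1, Tmem171 and Srxn1. Gsta1, a glutathione transferase gene, measured 2.67 and 7.89 CPM in normal and 78.9 and 25.6 CPM in ischemic sections in members and 0.525 and 0.636 CPM in normal and 228 and 189 CPM in ischemic sections in other spots (difference -5.09 ± 0.61, adjusted p = 3.46e-11). Rasd1, a dexamethasone-induced Ras gene, measured 40.5, 71.7, 47.5 and 57.9 CPM in members and 4.49, 6.44, 52.8 and 63.6 CPM in other spots (difference -3.48 ± 0.19, adjusted p = 1.88e-33). Of these 10, Defb1 did not pass in cortex alone, and the other 9 did.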

How the data were processed

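The authors sequenced 4 10x Visium libraries of mouse kidney and deposited, for each section, a matrix of UMI counts per gene and spot with the spot positions and a call of spots under tissue. Per the file headers the counts came from Space Ranger 1.3.0, and the submitters' processing notes name the build mm10; no source used here names the annotation. The deposited counts were not normalized.

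Spots under tissue with at least 2000 UMIs were ranked within each section, and counts were summed over members and over the other spots. Members, gene lists and tests were chosen with earlier results of these data known. CPM values of spots and of all spots together are unscaled; sums were scaled by TMM (trimmed mean of M values), filtered by expression and tested with edgeR 4.0.16 (quasi-likelihood, R 4.3.3), with Benjamini-Hochberg adjustment at 0.05. Errors of log2 fold changes are approximate SE, with n = 2 sections a condition. Each is the absolute log2 fold change divided by the square root of the F value of the quasi-likelihood test. The difference of changes was fitted to 8 sums with the section as a block. Fits were tested on simulated data. A zone was assigned to each spot from standardised marker levels over the spot and its 6 neighbours. Genes were named if listed as cell type genes or among the 10 with the largest rise, fall, positive or negative difference, or ratio over other spots, at 20 CPM or more. DESeq2 1.42.0, other scaling, filters, UMI minimums, member shares, thinning, cortex spots alone and leaving out each section were the alternatives. No doublet caller was run on spots. Median UMIs per spot were 7910 to 15094 in members and 8966 to 16554 in other spots; intervals and floors cover counting error only. Some genes in the counts over lists are not reported here by their own values.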

Additional observations from a re-analysis of the deposited data

Results flagged for a closer look

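The 20 genes below had the largest differences, by the rule for named genes, between the ischemic change in intercalated-cell-rich spots and that in the other spots of the same sections. Each difference itself passed the edgeR quasi-likelihood test with Benjamini-Hochberg adjustment, and values are differences of log2 fold changes, members minus other spots. The positive differences were Krt19 (4.01), Sprr1a (3.79), 9530034E10Rik (3.62), Tmem158 (3.01), Slc14a2 (2.89), Cyp7b1 (2.62), Pigr (2.37), Cyp51 (2.27), Ccl5 (2.22) and Cyp4a14 (2.19). The negative differences were Gsta1 (-5.09), Rasd1 (-3.48), Adm (-2.73), Krt80 (-2.15), S100g (-2.14), Shisa4 (-2.02), Atp6v0d2 (-2.0), Defb1 (-1.90), Tmem171 (-1.88) and Srxn1 (-1.74). In cortex spots alone 12 of the 20 passed, which were Krt19, Sprr1a, Pigr, Gsta1, Rasd1, Adm, Krt80, S100g, Shisa4, Atp6v0d2, Tmem171 and Srxn1. Of the other 8, Tmem158 was at 2.71 and 9530034E10Rik at 2.41 in cortex alone, and Slc14a2 was at 1.23 and Defb1 at -0.17. The cortex comparison left out the outer and inner stripe as well as the inner medulla, and held fewer spots. The share of inner medullary members differed between conditions, at 0% and 2.36% in the normal and 21.4% and 19.2% in the ischemic sections. Its own part in the other 8 differences was not tested.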

How the results depend on the processing

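The count of genes that differed between conditions in members, 3628, was 1820 by DESeq2 and 2241 for the top 2.5% of spots, and ran from 2797 to 3298 when 1 section was left out. The count for the difference between members and other spots, 657, was 304 by DESeq2, 336 when spots were thinned to 2000 UMIs before ranking, 394 when they were ranked on 50% of their UMIs and measured on the rest, which leaves fewer counts, 183 in cortex spots alone, which leaves fewer spots, and 121 with no section block. Leaving out 1 section gave 217 to 938 such genes, the lowest without ischemic 1 and the highest without normal 2, where 700 were higher and 238 lower in members. RLE scaling gave 453 higher and 224 lower. The counts for other spots stayed within 1.5 times of 9167. With a replicate block, which pairs sections by number, 3861 genes were called in members and 382 for the difference. The correlation of the deviations of same-numbered sections was 0.003 in members and 0.17 in other spots over 2 pairs. So few pairs cannot settle whether the numbers pair the sections. The causes of these shifts were not tested.

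Of the 15 general intercalated cell genes, 10 to 12 fell and 1 rose in members under every alternative, and 3 to 9 changed lower and 0 higher than in other spots, the lowest count being that of cortex spots alone. Their median log2 ratio of members over other spots in normal sections, 2.48, was 2.60 for the top 2.5%, 2.29 for the top 10%, 2.25 after thinning and 2.01 in cortex alone, and in ischemic sections, 2.04, it was 1.75 after thinning. Of 2413 values of named genes under alternatives, 2222 kept their side of the threshold, 168 lost and 12 gained the call, and 11 turned. Turns were counted only where the main or the alternative value passed. The 2222 can thus include turns between values that did not pass. In cortex alone the change in members turned for Scnn1b (0.032) and Ccl5 (-2.02), and the difference turned for Car15 (0.084), Aqp2 (-0.38), Fxyd4 (-0.27) and Krt18 (-0.36). With the top 10% of spots it turned in members for Pigr (-0.46) and Rasd1 (0.52), with the top 2.5% for Ccl21a (-0.88), and after thinning for Pigr (-0.69) and Ccl21a (-1.01). Depth limits low genes most: a floor of 3 counts stands at 1.60 to 2.26 CPM in member sums.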
